A study of Mus musculus with 17 samples.

Results

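The 10 genes described here are markers of the cardiac fibroblast at rest and of the states it takes when the heart is loaded: Tcf21, Pdgfra, Pdgfrb, Meox1, Runx1, Fap, Acta2, Cthrc1, Cilp and Comp. They were taken by gene symbol, and all 10 were found among the 21798 genes listed and among the 16218 that passed a filter of 0.5 CPM (reads of a gene scaled to a common total in each library) in at least 3 libraries. Polyadenylated RNA of the left ventricular apex was sequenced 3 weeks after surgery in 17 male C57Bl6/J mice, young adults at surgery, with 1 library from each. Transverse aortic constriction (TAC), which narrows the aorta and raises the pressure load on the left ventricle, was compared with Sham surgery. Mice of both surgeries received by oral gavage either 29P at 50 µg/kg, an orally available compound directed at the integrin αvβ3, or saline vehicle (Veh), in repeated doses that began in the weeks after surgery, which gave 6 TAC 29P and 3 TAC Veh libraries beside 3 Sham 29P and 5 Sham Veh libraries. Of 3 further libraries that the authors left out, 1 was a TAC Veh library that clustered with Sham mice. The TAC Veh libraries were thus partly selected for being unlike Sham, which can widen their differences from Sham. No allele or transgene was used in any group, and libraries are named here by group and by their number in the labels.

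Cardiac fibroblasts lay down and turn over the matrix between cardiomyocytes. The transcription factor Tcf21 and the receptor Pdgfra mark them in the resting heart. Under pressure load many of them proliferate, express contractile and matrix genes as activated fibroblasts or myofibroblasts, and some later express genes of cartilage and tendon. Meox1 and Runx1 are transcription factors linked to activation, Fap is a surface protease of activated fibroblasts, and Cthrc1, Cilp and Comp are secreted proteins of remodelling matrix.

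The estimated depth was about 14200000 to 23800000 reads per library (median 20400000). Transcripts of 16 mitochondrial-encoded genes took 29.1 to 40.0% of each Sham library and 23.6 to 29.4% of each TAC library. Over all genes tested the median log2 fold change was 0.35 for TAC Veh against Sham Veh and 0.37 for TAC 29P against Sham 29P. With TMM factors, which rescale each library on the bulk of its genes, these medians were 0.04 and 0.03, and changes are also given on that scale. In 3 libraries, Sham Veh 19, Sham Veh 20 and TAC 29P 18, the summed CPM of the atrial genes Myl7, Myl4 and Sln was 1015 to 2543, against at most 5.75 in the other 14. These 3 share a run of animal numbers in the labels that no other library has, and results that move with them are given without them. Nothing in the labels says more of the origin of the samples than their mouse, and in bulk tissue more cells of a type and more RNA per cell cannot be told apart.

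The tissue was checked against lists of marker genes. The summed CPM of 20 resting fibroblast genes was 1480 to 3210 in Sham and 2630 to 4280 in TAC libraries. That of 8 cardiomyocyte genes was 35500 to 49100 in Sham and 30700 to 41400 in TAC libraries.

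Cilp, which encodes a cartilage intermediate layer protein secreted into the matrix, had the smallest adjusted p of the 10 in both comparisons of TAC with Sham. Its CPM was 15.4, 16, 18.5, 20.2 and 18.7 in Sham Veh and 17.2, 9.52 and 6.04 in Sham 29P libraries. In TAC Veh libraries it was 386, 164 and 260, and in TAC 29P libraries it ran from 60.8 to 414 with a median of 165. Every TAC library was thus above every Sham library. The log2 fold change was 3.85 for TAC Veh against Sham Veh (SE 0.46, limma adjusted p = 0.000234) and 4 for TAC 29P against Sham 29P (SE 0.44, limma adjusted p = 0.000139). With TMM factors it was 3.54 and 3.66, both past the adjusted threshold of 0.05.

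The promoter of Cilp is shown together with that of Acta2, the member that did not pass the test in either comparison of TAC with Sham. Each run is the 250 bases before the RefSeq transcription start on the gene's own strand in GRCm38.p6, at chr9:65264930-65265179 (plus strand) for Cilp and chr19:34255374-34255623 (minus strand) for Acta2. By the GENCODE vM21 annotation 217 of the 250 bases of the Acta2 run lie inside the gene, and none of the Cilp run does. Capitals mark matches on either strand to the motifs named after the runs.
Cilp: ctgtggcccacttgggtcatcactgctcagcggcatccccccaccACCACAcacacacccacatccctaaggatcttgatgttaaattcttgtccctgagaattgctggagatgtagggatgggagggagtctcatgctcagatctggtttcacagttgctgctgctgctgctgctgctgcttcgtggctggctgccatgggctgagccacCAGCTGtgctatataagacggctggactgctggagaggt
Acta2: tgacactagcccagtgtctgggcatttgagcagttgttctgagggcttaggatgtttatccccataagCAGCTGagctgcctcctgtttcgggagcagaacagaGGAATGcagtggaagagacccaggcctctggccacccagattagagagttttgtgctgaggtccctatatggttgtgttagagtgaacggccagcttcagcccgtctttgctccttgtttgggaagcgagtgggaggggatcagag
Windows were held for 5 of the 10 members (Tcf21, Pdgfra, Runx1 with 2 starts, Acta2 and Cilp). The motifs searched were the TATA box as TATAAA, the E-box as CAGCTG, the RUNX site as TGTGGT or else as TGCGGT, the TEAD site as GGAATG, the AP-1 site as TGANTCA, the homeobox site as TAATTA, and the CArG box that serum response factor binds. The CArG box was taken strictly, with only A or T between CC and GG. Looser forms of the motifs, such as a CArG box with another base inside, were not searched or marked. The Cilp window held CAGCTG at 39 to 34 bases before the start and TGTGGT at 205 to 200. The Acta2 window held CAGCTG at 182 to 177 and GGAATG at 146 to 141 bases before the start, and no match shared a base with another. Among 32851 windows of the same length, 13% held CAGCTG, 14% TGTGGT and 12.6% GGAATG. The share was 12.4% for TATAAA, 5.1% for TGCGGT, 6.75% for TGANTCA, 4.84% for TAATTA and 1.47% for the CArG box. The window of the downstream Runx1 start held GGAATG at 55 to 50 bases before it, and the other 3 windows held none of the motifs in the forms searched.

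Counted over the members, 8 of 10 were higher in TAC Veh than in Sham Veh and none was lower at an adjusted p of 0.05, where 22.5% of all genes tested were called higher and 1.91% lower. For TAC 29P against Sham 29P, 9 of 10 were higher and none lower, beside 31.4% and 1.12% of all genes. Cthrc1, counted in both, passed the filter on low values through TAC libraries alone. With no filter 8 members were called in Veh and 8 in 29P mice, beside 14.2% and 20.7% of all genes called higher. The comparisons in Veh and in 29P mice share no library, but both use the spread that 1 fit estimated over all 17 libraries. A gene's calls in them are thus not independent. All 8 genes called in the first were called in the second, which is 88.9% of its 9, whereas of all 3648 genes higher in the first 69.3% were higher in the second, or 49.6% of its 5097. The counts fell when single libraries were left out. Without TAC Veh 2 only Meox1 and Cilp were called in Veh mice, beside 2.6% of all genes called higher, and without TAC Veh 16 there were 4 (Pdgfrb, Meox1, Cthrc1 and Cilp) beside 12.8%. Without Sham 29P 14 only Meox1 and Cilp were called in 29P mice, beside 6.41% of all genes. Without the 3 libraries with atrial transcripts 6 members were called in Veh mice, Pdgfrb and Fap being lost, and 8 in 29P mice, Cthrc1 being lost, beside 13.4% and 30.2% of all genes. Runs of animal numbers in the labels were spread unevenly over the groups. With the run as a covariate 7 members were called in Veh mice, all but Fap of the 8, beside 19.2% of all genes, and 3 in 29P mice (Meox1, Fap and Cilp) beside 4.19%. One run held 9 libraries from all 4 groups, 6 of TAC (5 with 29P, 1 with Veh) and 3 of Sham (1 with 29P, 2 with Veh). The other runs held too few for values of their own. In the run of 9 libraries TAC and Sham thus also differed in treatment. Within it, as a description chosen after seeing the data, 7 members (all but Tcf21, Acta2 and Cthrc1) had every TAC library above every Sham library, beside 30.3% of all genes. The differences of mean log2 CPM, TAC minus Sham, ran there from 0.26 for Acta2 to 4.62 for Cthrc1, with 3.47 for Cilp and 1.83 for Meox1. With TMM factors 5 members (Pdgfrb, Meox1, Runx1, Cthrc1 and Cilp) and 4 members (Pdgfrb, Meox1, Cilp and Comp) were called higher, beside 4.42% and 5.99% of all genes. The median of the 10 log2 fold changes was 1.3 and 1.11, and 0.99 and 0.76 with TMM factors. In 7 of 10 members the TAC Veh libraries lay above every Sham Veh library, and in 7 of 10 the TAC 29P libraries lay above every Sham 29P library, which held for 27.6% and 25.0% of all genes.

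**Figure D1:**
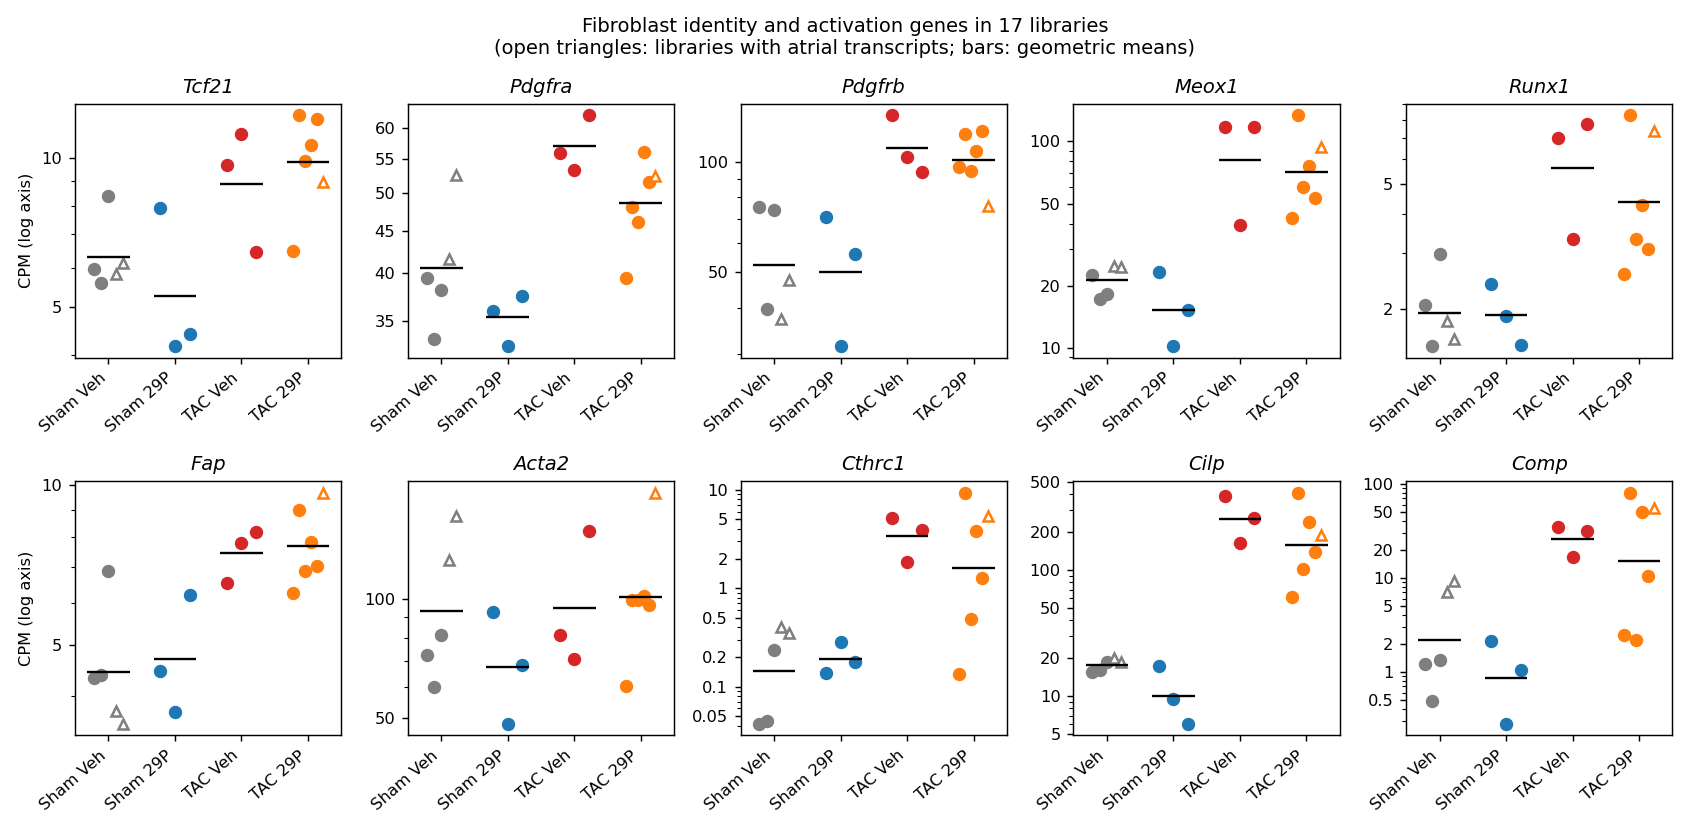
CPM of the 10 genes (log axis, a scale of its own in each panel) by group, 1 point per library, with bars at the geometric mean and open triangles for the 3 libraries with atrial transcripts. All 9 TAC libraries stand above all 8 Sham libraries for Cilp, Meox1 and, by a narrow margin, Pdgfrb, and the Acta2 groups lie across each other. The highest Acta2 value, 186 CPM, is an open triangle.

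Comp, cartilage oligomeric matrix protein, a thrombospondin of tendon and cartilage, was low in Sham Veh libraries at 1.22, 0.492, 1.33, 7.01 and 9.19 CPM, the last pair being the libraries with atrial transcripts. It was 2.12, 0.282 and 1.06 CPM in Sham 29P and 34.5, 16.6 and 31.4 CPM in TAC Veh libraries. The TAC 29P libraries spread 37.0-fold, from 2.18 to 80.8 CPM around a median of 30.1. The lowest TAC 29P library was thus just above the highest Sham 29P library. The log2 fold change was 3.57 in Veh (SE 1.18, limma adjusted p = 0.0367) and 4.15 in 29P mice (SE 1.14, limma adjusted p = 0.0155). It was 4.82 in Veh mice without the 3 libraries with atrial transcripts (limma adjusted p = 0.0207), and 3.26 with TMM factors, where the call was lost (limma adjusted p = 0.0783). The call in Veh mice was also lost when any of 6 of the 8 libraries was left out (limma adjusted p = 0.0549 to 0.144), and over all 8 such fits the value was 3.03 to 4.09.

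Cthrc1, a secreted glycoprotein that marks the most matrix-producing fibroblasts, was near the limit of these libraries in Sham hearts. Its CPM of 0.0421, 0.0447, 0.238, 0.402 and 0.35 in Sham Veh stands for about 1, 1, 5, 9 and 7 reads, and its 0.138, 0.282 and 0.176 in Sham 29P for about 3, 4 and 3. In TAC Veh it was 5.19, 1.86 and 3.94 CPM, and in TAC 29P 0.134 to 9.36 CPM with a median of 2.56. It passed the filter on low values through the TAC libraries. The TAC Veh libraries were all above Sham Veh, while TAC 29P library 1 was below all 3 Sham 29P libraries. On the log2 scale TAC was higher by 4.54 in Veh (SE 1.13, limma adjusted p = 0.0118) and 3.06 in 29P mice (SE 1.09, limma adjusted p = 0.0411), and with 1 CPM added to each value it was 1.88 and 1.45. Pooled over libraries, 216 reads in TAC Veh against 23 in Sham Veh gave a CPM ratio of 17.4 (95% exact interval 11.3 to 28, counting error only). In 29P mice the pooled ratio was 17.1 (95% exact interval 9.2 to 36). The call in 29P mice was lost with TMM factors (limma adjusted p = 0.104), and without the libraries with atrial transcripts (limma adjusted p = 0.0652). It held without TAC 29P 1 or 8 (limma adjusted p = 0.0105 and 0.0345) and was lost without any other single library of those groups.

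Meox1, a homeobox factor of the activated fibroblast, was measured at 22.6, 17.3, 18.3, 24.9 and 24.7 CPM in Sham Veh and at 23.2, 10.2 and 15.2 CPM in Sham 29P libraries. In TAC Veh libraries it reached 117, 39.6 and 118 CPM, and in TAC 29P libraries 42.7 to 134 CPM with a median of 68.1. All 9 TAC libraries were above all 8 Sham libraries. The log2 fold change was 1.94 in Veh (SE 0.37, limma adjusted p = 0.00354) and 2.22 in 29P mice (SE 0.36, limma adjusted p = 0.0016). With TMM factors it was 1.63 and 1.88, both past the threshold. Meox1 and Cilp were the members whose calls in both comparisons held in every alternative run, each left-out library included.

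Runx1, a Runt-related factor known best from blood formation, was low in all groups. Its CPM was 2.06, 1.52, 2.99, 1.83 and 1.6 in Sham Veh, 2.40, 1.90 and 1.53 in Sham 29P, 6.98, 3.33 and 7.73 in TAC Veh and 2.59 to 8.27 (median 3.81) in TAC 29P libraries. Groups did not overlap in either comparison of TAC with Sham. TAC exceeded Sham by a log2 fold change of 1.54 in Veh (SE 0.38, limma adjusted p = 0.0111) and 1.19 in 29P mice (SE 0.37, limma adjusted p = 0.0235). With TMM factors the value in 29P mice was 0.85 and its call was lost (limma adjusted p = 0.111). Blood cells also express Runx1. All 8 macrophage genes of a marker list were higher after TAC in both comparisons, beside 22.5% and 31.4% of all genes. With TMM factors 2 and 7 were higher, beside 4.42% and 5.99%. The summed CPM of these macrophage genes was 207 to 403 in Sham and 446 to 726 in TAC libraries, with none at 0. Their part in the Runx1 change was not tested.

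Among the receptors, Pdgfra, which binds PDGF ligands and marks fibroblasts through life, was 39.4, 33.3, 38.1, 41.6 and 52.6 CPM in Sham Veh and 36, 32.6 and 37.5 CPM in Sham 29P libraries. It was 55.9, 53.3 and 62.2 CPM in TAC Veh and 39.4 to 56.1 CPM (median 49.9) in TAC 29P libraries. The groups were apart in both comparisons, but by little. The log2 fold change was 0.49 in Veh (SE 0.14, limma adjusted p = 0.0184) and 0.46 in 29P mice (SE 0.13, limma adjusted p = 0.0177), close to the median of all genes. With TMM factors it was 0.18 and 0.12 and neither was called (limma adjusted p = 0.357 and 0.526).

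Pdgfrb, the receptor of pericytes and of activated fibroblasts, rose about 2-fold. Its CPM was 75.2, 39.7, 73.9, 37.3 and 47.6 in Sham Veh, 70.9, 31.5 and 56.2 in Sham 29P, 134, 103 and 93.6 in TAC Veh, and 75.8 to 121 (median 102) in TAC 29P libraries. The lowest TAC Veh value was above the highest Sham Veh value, and the same held in 29P mice. Over both treatments the lowest TAC value, 75.8 CPM, was just above the highest Sham value, 75.2 CPM. Fitted log2 fold changes were 1.06 in Veh (SE 0.26, limma adjusted p = 0.0118) and 1.02 in 29P mice (SE 0.25, limma adjusted p = 0.0104). With TMM factors it was 0.75 and 0.67, both called, and without the libraries with atrial transcripts the value in Veh mice was 0.85 and no longer called (limma adjusted p = 0.0527). Of 8 pericyte genes, 3 were higher in Veh mice after TAC: Cspg4 at a log2 fold change of 1.24, Notch3 at 1.16 and Rgs5 at 0.43. In 29P mice 4 were higher. Of all genes 22.5% and 31.4% were called higher. With TMM factors 1 was higher in Veh mice, beside 4.42% of all genes. In 29P mice none was then higher and 1 was lower, beside 5.99% and 4.71%. The summed CPM of the 8 pericyte genes was 963 to 1340 in Sham and 1270 to 1600 in TAC libraries. None was at 0, and their part in the Pdgfrb change was not tested.

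Tcf21, the basic helix-loop-helix factor of resting fibroblasts, was 5.97, 5.59, 8.37, 5.81 and 6.14 CPM in Sham Veh, 7.93, 4.16 and 4.40 in Sham 29P, 9.68, 11.2 and 6.45 in TAC Veh, and 6.48 to 12.2 (median 10.2) in TAC 29P libraries. TAC and Sham overlapped in both comparisons. The log2 fold change was 0.49 in Veh mice (SE 0.25, limma adjusted p = 0.140), which did not pass, and 0.90 in 29P mice (SE 0.24, limma adjusted p = 0.0135), which did. With TMM factors it was 0.18 and 0.55, neither called (limma adjusted p = 0.632 and 0.0913). The fitted value was above 0 for both comparisons in every alternative run.

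Fap, fibroblast activation protein, was 4.33, 4.39, 6.89, 3.75 and 3.55 CPM in Sham Veh and 4.47, 3.74 and 6.22 CPM in Sham 29P libraries. It was 6.54, 7.78 and 8.16 CPM in TAC Veh and 6.26 to 9.69 CPM (median 7.42) in TAC 29P libraries. The highest Sham Veh library lay inside the TAC Veh range, while TAC 29P lay above Sham 29P by a narrow margin. In the limma fit the log2 fold change was 0.74 in Veh (SE 0.22, limma adjusted p = 0.0237) and 0.71 in 29P mice (SE 0.21, limma adjusted p = 0.0216). With TMM factors it was 0.43 and 0.36, and neither was called (limma adjusted p = 0.201 and 0.246). The call in Veh mice was also lost without Sham Veh 19 or without any 1 of the TAC Veh libraries (limma adjusted p = 0.052 to 0.0758). That in 29P mice was lost without Sham 29P 14 (limma adjusted p = 0.147).

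Acta2, smooth muscle α-actin, the classical myofibroblast marker, was the member that passed in neither comparison. Its CPM was 72.1, 59.9, 81.2, 126 and 162 in Sham Veh, 92.9, 48.5 and 68.0 in Sham 29P, 81.4, 70.5 and 149 in TAC Veh, and 60.2 to 186 (median 99.7) in TAC 29P libraries. The 3 libraries with atrial transcripts held 3 of the 4 highest values, and TAC Veh 16, which lacks those transcripts, held the other. As log2 fold changes the differences were 0.02 in Veh (95% interval -0.71 to 0.75, limma adjusted p = 0.973) and 0.59 in 29P mice (95% interval -0.12 to 1.3, limma adjusted p = 0.178). With TMM factors the sign in Veh mice turned, to -0.29, and without the libraries with atrial transcripts the value was 0.43 (limma adjusted p = 0.281). Much of the Acta2 in a heart is known to come from vascular smooth muscle. Of 10 smooth muscle genes only Des, which cardiomyocytes share, was higher in Veh mice after TAC (log2 fold change 1.05). In 29P mice 2 were higher, and of all genes 22.5% and 31.4% were called higher. Without the libraries with atrial transcripts 2 were higher in Veh and 5 in 29P mice, beside 13.4% and 30.2% of all genes. The median log2 fold change of the list in Veh mice then moved from 0.2 to 0.58. The summed CPM of the 9 genes other than Des was 142 to 490 in Sham and 216 to 472 in TAC libraries. These ranges overlapped, with the libraries with atrial transcripts included and no gene at 0. Myh11, the defining smooth muscle myosin, was 54.0, 94.7 and 93.6 CPM in the libraries with atrial transcripts and 28.1 to 76.7 CPM in the other 14, and its part in the Acta2 values was not tested. Reads of Acta2 can be shared with the nearly identical actins Actc1 (4080 to 7190 CPM) and Acta1, and the counting rule of the authors for such reads is not given in the sources used here.

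**Figure D2:**
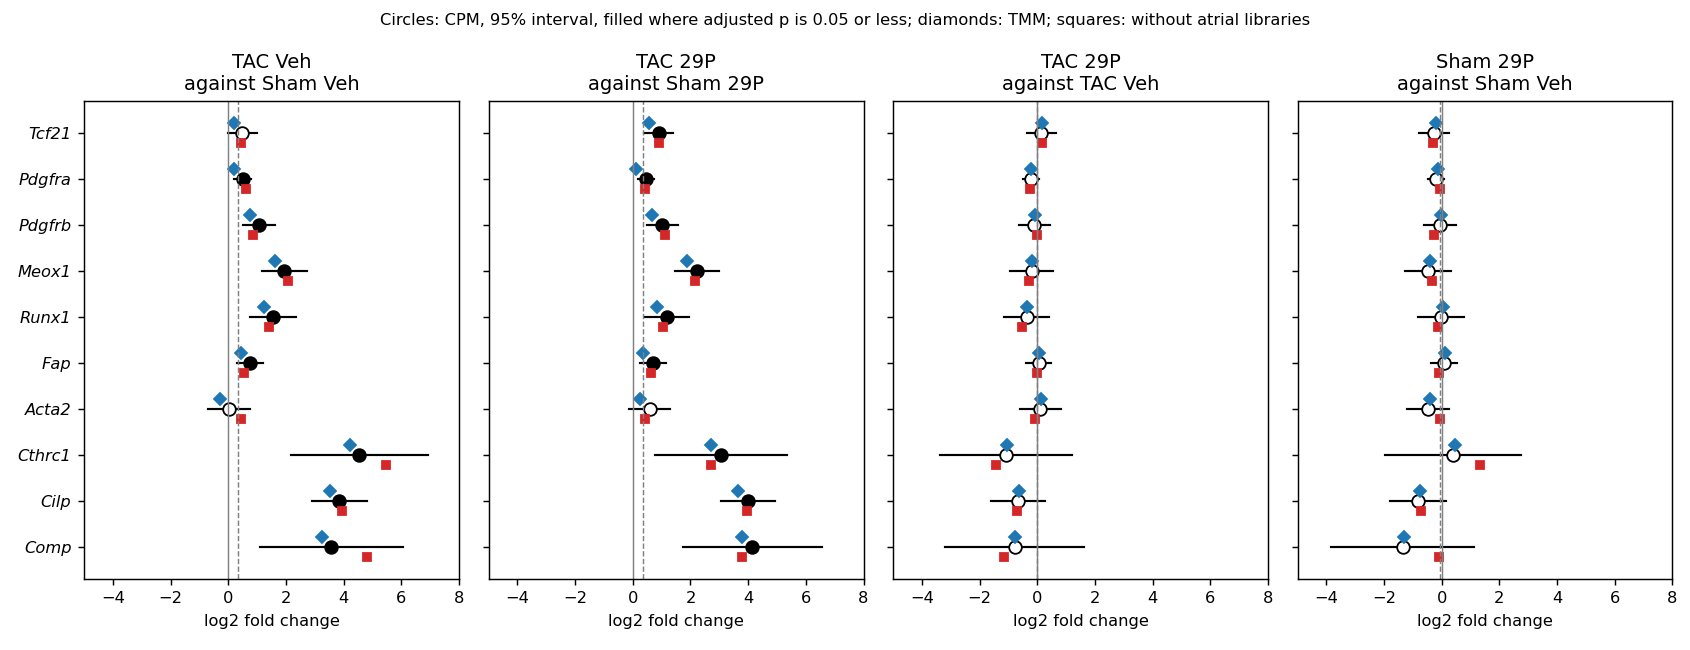
Log2 fold change of each gene (circles, with the 95% interval of the model; filled at an adjusted p of 0.05 or less), the same with TMM factors (diamonds) and without the 3 libraries with atrial transcripts (squares). The dashed line is the median of all genes, at 0.35 and 0.37 in the first 2 panels. Filled circles number 8, 9, 0 and 0 from left to right.

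Treatment with 29P was compared with Veh within TAC, which asks whether the compound moved the fibroblast genes of the loaded heart. Here too the TAC Veh libraries were partly selected for being unlike Sham, and no TAC 29P library was left out. In genes that TAC raised, this can shift the differences of TAC 29P from TAC Veh towards lower values. None of the 10 members was called, as was true of all genes (0% called at the adjusted threshold, 1.98% at an unadjusted p of 0.05), and none of the 10 reached an unadjusted p of 0.05. The fitted differences (log2, TAC 29P minus TAC Veh) of the secreted genes were -0.67 for Cilp (95% interval -1.6 to 0.26), -0.79 for Comp (-3.19 to 1.61) and -1.08 for Cthrc1 (-3.38 to 1.21). These intervals take in decreases of more than 2-fold as well as increases. The intervals were narrower for Pdgfra at -0.23 (-0.51 to 0.05), Fap at 0.04 (-0.40 to 0.49), Pdgfrb at -0.10 (-0.64 to 0.43) and Tcf21 at 0.14 (-0.36 to 0.64). For Meox1 the difference was -0.20 (-0.95 to 0.56), for Runx1 -0.37 (-1.14 to 0.40) and for Acta2 0.10 (-0.61 to 0.81). Pdgfra was lower in 5 of the 6 TAC 29P libraries than in any TAC Veh library. The exact two-sided permutation p of the 10 members ran from 0.0714 for Pdgfra to 0.833 for Acta2, where 84 splits allow 0.0238 at the least. All 10 pairs of groups overlapped, and 1.83% of all genes did not.

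Within Sham, 29P against Veh gave no called member either (0.00617% of all genes called at the adjusted threshold, 7.49% at an unadjusted p of 0.05), and none of the 10 passed the unadjusted threshold. The difference was -0.83 for Cilp (95% interval -1.79 to 0.14), with Sham 29P libraries 14 and 15 below every Sham Veh library. It was -1.36 for Comp (-3.84 to 1.12), and -0.11 without the libraries with atrial transcripts, which hold the highest Sham Veh values. It ran from -0.48 for Meox1 to 0.39 for Cthrc1 among the other members. All 10 pairs of groups overlapped, beside 2.14% of all genes that did not. The change with 29P in TAC minus that in Sham passed the adjusted threshold in none of the 10 members (0.00617% of all genes) nor at an unadjusted p of 0.05 (2.84% of all genes), and the smallest limma adjusted p among them was 0.998.

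By exact permutation, the 7 members whose TAC Veh libraries did not overlap Sham Veh had the smallest two-sided p that 56 splits allow, 0.0357. The exact permutation p was 0.0714 for Tcf21 and Fap and 0.893 for Acta2. The TAC Veh library that the authors left out took no part in these splits. In 29P mice the exact permutation p was 0.0238, the smallest for 84 splits, for 7 members, and 0.0476 for Tcf21, 0.0952 for Cthrc1 and 0.167 for Acta2.

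A scale that does not depend on library scaling is the ratio to Pdgfra within each library, a choice made after the data had been seen and given as a description. For Cilp this log2 ratio spanned -1.49 to -1.04 over the Sham Veh and -2.64 to -1.07 over the Sham 29P libraries, against 1.62 to 2.79 over the TAC Veh and 0.63 to 3.10 over the TAC 29P libraries. For Meox1 it spanned -1.67 to -0.63 over all 8 Sham and -0.43 to 1.48 over all 9 TAC libraries. Both were apart between TAC and Sham in Veh and in 29P mice. The ratio of Tcf21 to Pdgfra differed by -0.00 in Veh and 0.44 in 29P mice, that of Fap by 0.25 and 0.25 and that of Acta2 by -0.47 and 0.13, all with overlapping groups. The ratios of Cthrc1 and Comp were apart in Veh mice (differences of 4.05 and 3.08) but overlapped in 29P mice (2.6 and 3.68), and those of Runx1 overlapped in both (1.05 and 0.73).

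Levels between genes were compared per kilobase of exon (union of GENCODE vM21 exons). In Sham Veh the order of mean CPM per kilobase was Acta2 (45.7), Pdgfrb (9.99), Meox1 (9.68), Cilp (4.17), Pdgfra (4.09), Tcf21 (2.71), Comp (1.3), Fap (0.809), Runx1 (0.166) and Cthrc1 (0.135). Neighbours in that order had overlapping ranges except Acta2 and Pdgfrb, Meox1 and Cilp, and Fap and Runx1. In TAC Veh the order opened with Cilp (63.4), Acta2 (45.6), Meox1 (41.1) and Pdgfrb (20.1), whose ranges overlapped from each to the next, and it went on with Comp (9.26), Pdgfra (5.70), Tcf21 (3.87), Cthrc1 (2.3), Fap (1.32) and Runx1 (0.5). Ranges were apart there between Pdgfrb and Comp, Pdgfra and Tcf21, and Fap and Runx1. Cilp thus had the fourth level among the 10 in Sham Veh and the first in TAC Veh. In TAC 29P libraries Acta2 (48.9) stood before Cilp (45.0), with overlapping ranges.

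The TAC 29P libraries differed more among themselves in the regulators and secreted genes than in the identity genes. The highest over the lowest CPM was 69.8-fold for Cthrc1, 37.0-fold for Comp, 6.80-fold for Cilp, 3.19-fold for Runx1 and 3.15-fold for Meox1, and 1.43-fold for Pdgfra, 1.6-fold for Pdgfrb and 1.87-fold for Tcf21. TAC 29P library 1 was the lowest of the 6 in 8 of 10 members, and library 3 the highest in 6 of 10 and among the highest pair in 8. Library 8 was lowest for Comp and among the lowest pair in 6 of 10. These 3 libraries had estimated depths of about 20100000 to 22400000 reads, and none held atrial transcripts above the level of the rest. Library 18, which held atrial transcripts, was among the highest pair in 7 of 10 members at about 15900000 reads. It was the highest for Fap and Acta2 and the lowest for Pdgfrb. The lowest Cthrc1 value, in library 1, stands for about 3 reads. The degree of constriction of each mouse was not analysed here.

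After the group means were taken out, Meox1, Runx1, Cthrc1, Cilp and Comp varied together. Over the 17 libraries Pearson's r of their deviations (log2 CPM) was 0.55 to 0.83 in their 10 pairs, with a median of 0.76, against a median of 0.27 in the other 35 pairs. Over the 9 TAC libraries the 10 pairs had r of 0.72 to 0.96, the highest being Meox1 with Runx1 and Cthrc1 with Comp, and the other 35 a median of 0.51. Over the 8 Sham libraries the 10 pairs had r of -0.04 to 0.81 with a median of 0.29, against 0.34 in the other pairs. Without the libraries with atrial transcripts (14 libraries) the 10 pairs had r of 0.56 to 0.85 and the other 35 a median of 0.47. The 5 genes were grouped after their correlations had been seen, and each library has 1 depth and scaling for all genes. Deviations of mitochondrial share had r of -0.60 with Meox1, -0.59 with Comp, -0.41 with Runx1 and -0.36 with Cthrc1 and with Cilp. Among the other members r was -0.63 for Pdgfra, -0.59 for Acta2, -0.58 for Pdgfrb, -0.40 for Tcf21 and -0.23 for Fap. With estimated depth r ran from -0.57 for Cthrc1 to 0.58 for Pdgfrb over the 10 members. Acta2 deviated most closely with Pdgfra among the members (r = 0.81, and 0.75 without the libraries with atrial transcripts), and Pdgfrb with Tcf21 (r = 0.61).

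**Figure D3:**
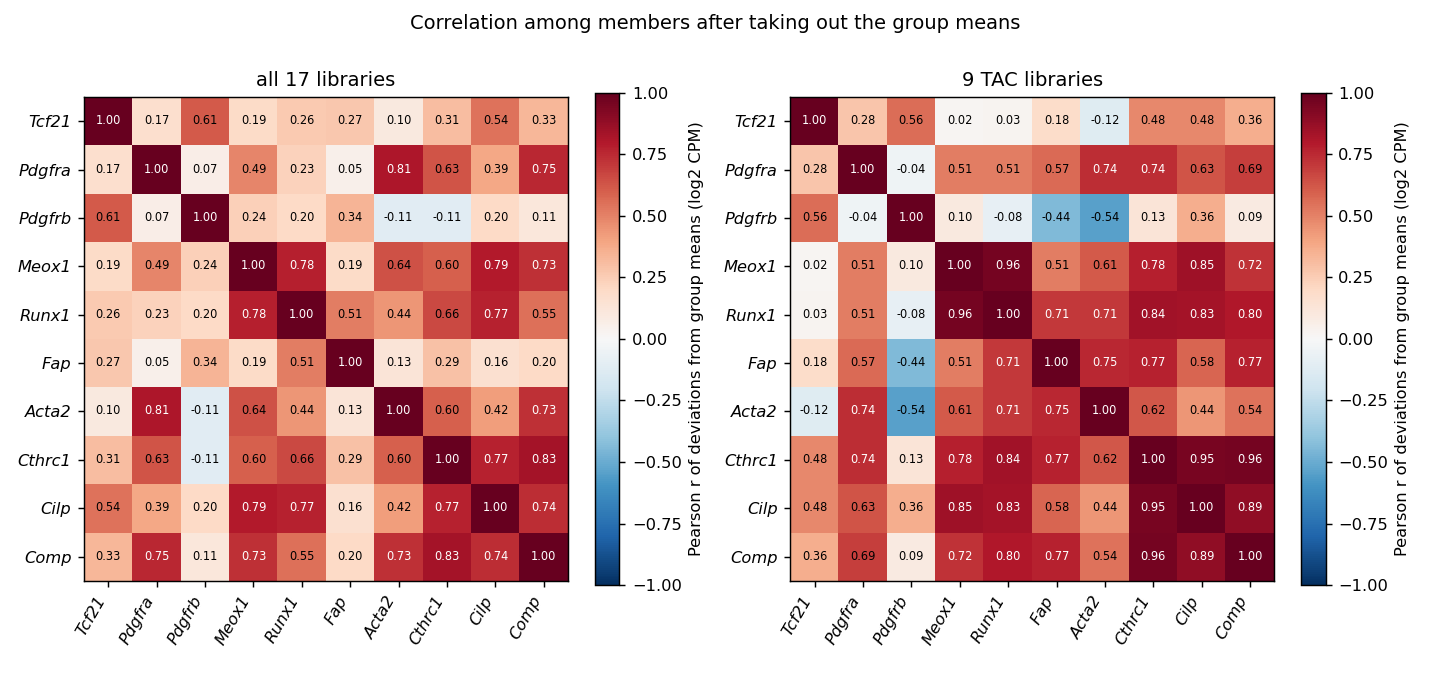
Pearson's r between members of log2 CPM deviations from the group means, over all 17 libraries (left) and the 9 TAC libraries (right), from -1 (blue) to 1 (red). The block of Meox1, Runx1, Cthrc1, Cilp and Comp is red in both panels, at 0.55 to 0.83 and 0.72 to 0.96.

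The genes outside the 10 whose deviations were most like each member were sought among 14044 genes with a mean CPM of at least 1. For Cilp they were Col5a2 (r = 0.94), a fibrillar collagen chain, Thbs4 (0.93), a thrombospondin, and Ctsk (0.92), a cysteine protease. For Comp they were Fmod (0.97), the collagen-binding fibromodulin, Tgfb3 (0.96) and Tmem119 (0.95), and for Cthrc1 Ikbip (0.95), Bicc1 (0.93) and Tmem45a (0.92). Those of Meox1 were Tpm3 (0.95), Fstl1 (0.94) and Rpn2 (0.92), and those of Runx1 Tyms (0.91), Fam3c (0.90) and Capza1 (0.87). Matrix genes thus stood among the nearest of Cilp and Comp. For the identity genes they were Lpin2 (0.92), Sdc4 (0.87) and Ndel1 (0.87) for Pdgfra, Ndor1, Dgkz and Lrp5 (0.97 each) for Pdgfrb, and Rad51d (0.88), Gamt (0.87) and Usb1 (0.86) for Tcf21. For Acta2 they were Cdr2 (0.94), Ugdh (0.94) and Uap1 (0.92), and for Fap Wdr55 (0.86), Shroom4 (0.81) and Zscan30 (0.80). All are r over 17 libraries, the highest of many.

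**Figure D4:**
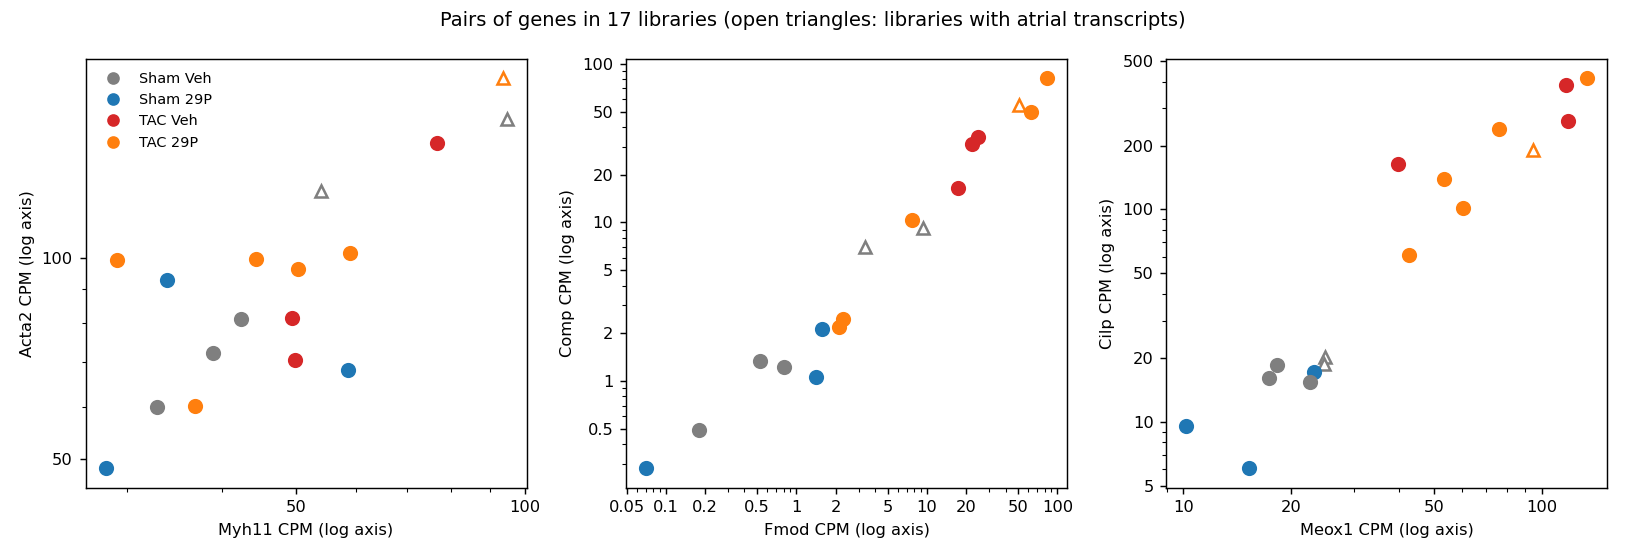
CPM of 3 pairs of genes in the 17 libraries (log axes; colours are groups, open triangles the libraries with atrial transcripts). Comp follows Fmod and Cilp follows Meox1 from Sham to TAC libraries, while Acta2 is highest where Myh11 is high, at 186 CPM of Acta2 with 93.6 CPM of Myh11 in TAC 29P library 18.

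Other genes of fibroblast states were taken from lists. Beside their counts, 22.5% of all genes were called higher in Veh and 31.4% in 29P mice, and 1.91% and 1.12% lower. With TMM factors 4.42% and 5.99% were higher and 5.07% and 4.71% lower. Without the libraries with atrial transcripts 13.4% and 30.2% were higher. Of 20 genes of activated fibroblasts, 19 were higher and none lower in Veh mice after TAC, with a median log2 fold change of 1.97 (1.66 with TMM factors, 16 called), and all 20 in 29P mice, with a median of 1.92 (14 called with TMM factors). The largest in Veh mice were Thbs4 (log2 fold change 4.40), Ltbp2 (3.97), which binds fibrillin and latent TGF-β complexes, and Postn (3.43), the matricellular protein periostin. Postn was 51.8, 71.3, 63.5, 98.8 and 81.5 CPM in Sham Veh and 1150, 411 and 970 CPM in TAC Veh libraries. Of 20 genes of resting fibroblasts, 12 were higher and 2 lower in Veh mice (13 and 2 in 29P mice), with a median of 0.67. The largest rises were those of Mfap4 (2.23) and Mfap5 (2.11), both microfibril proteins, and Col15a1 (1.72), and those lower were Scara5 (-0.82), a scavenger receptor, and Hsd11b1 (-0.48), which regenerates active glucocorticoid. With TMM factors 9 of the resting genes were higher and 2 lower in each comparison. Without the libraries with atrial transcripts 13 were higher in each, with none lower in Veh mice and 1 lower in 29P mice.

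Of 10 genes of late matrifibrocytes, the cartilage-like fibroblasts of mature scars, 4 were higher in Veh mice, with a median of 1.24, led by Fmod (4.16), Itgbl1 (1.85) and Thbs3 (1.32). In 29P mice 7 were higher, and with TMM factors 2 and 3 were called. Without the libraries with atrial transcripts 7 were higher in Veh and 7 in 29P mice, with medians of 1.78 and 1.41. Of 22 transcription factors of fibroblasts, 11 were higher in Veh mice and 10 in 29P mice, beside 22.5% and 31.4% of all genes. None was lower, and the medians were 0.63 and 0.51. With TMM factors 5 and 3 were higher, beside 4.42% and 5.99% of all genes. Without the libraries with atrial transcripts 7 and 9 of these factors were higher, beside 13.4% and 30.2% of all genes. Runx3 (2.06), Runx2 (1.57) and Scx (1.51), the tendon factor, had the largest called values in Veh mice. Of the PDGF ligands none was called in Veh mice: Pdgfa had a log2 fold change of 0.33, Pdgfb 0.52, Pdgfc 0.53 and Pdgfd 0.15. In 29P mice Pdgfc, a ligand of Pdgfra, was higher by 0.87 (limma adjusted p = 0.0191), a call that was absent with TMM factors.

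Among relatives of the members, Acta1, the skeletal actin of the fetal gene programme, was higher by 3.72 in Veh and 3.75 in 29P mice (log2), and its TAC libraries (1420 to 5760 CPM) lay above all Sham libraries (128 to 473 CPM). Actb, cytoplasmic β-actin, was higher by 0.52 and 0.84. The cardiac actin Actc1 had log2 fold changes of 0.17 in Veh and 0.40 in 29P mice, the latter called, and the smooth muscle actin Actg2 had 0.52 and 0.27, neither called. Of the thrombospondins related to Comp, Thbs1 had 1.92 and 2.15, the latter called, and Thbs2 had 0.19 and 0.30, neither called. Of the receptors related to Pdgfra and Pdgfrb, Csf1r, the macrophage receptor whose gene lies next to Pdgfrb, was higher by 0.95 and 1.08. The stem cell factor receptor Kit had 1.09, which was called, and 0.93, which was not, and Flt3, at most 1.1 CPM in any library, was called in neither. Dpp4, a protease related to Fap and its neighbour in the genome, had 0.56 and 0.18, neither called. With TMM factors 1 and 3 of the 10 relatives were called higher, beside 4.42% and 5.99% of all genes. Whether a call in one comparison differs from its absence in the other was not tested for these relatives.

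**Figure D5:**
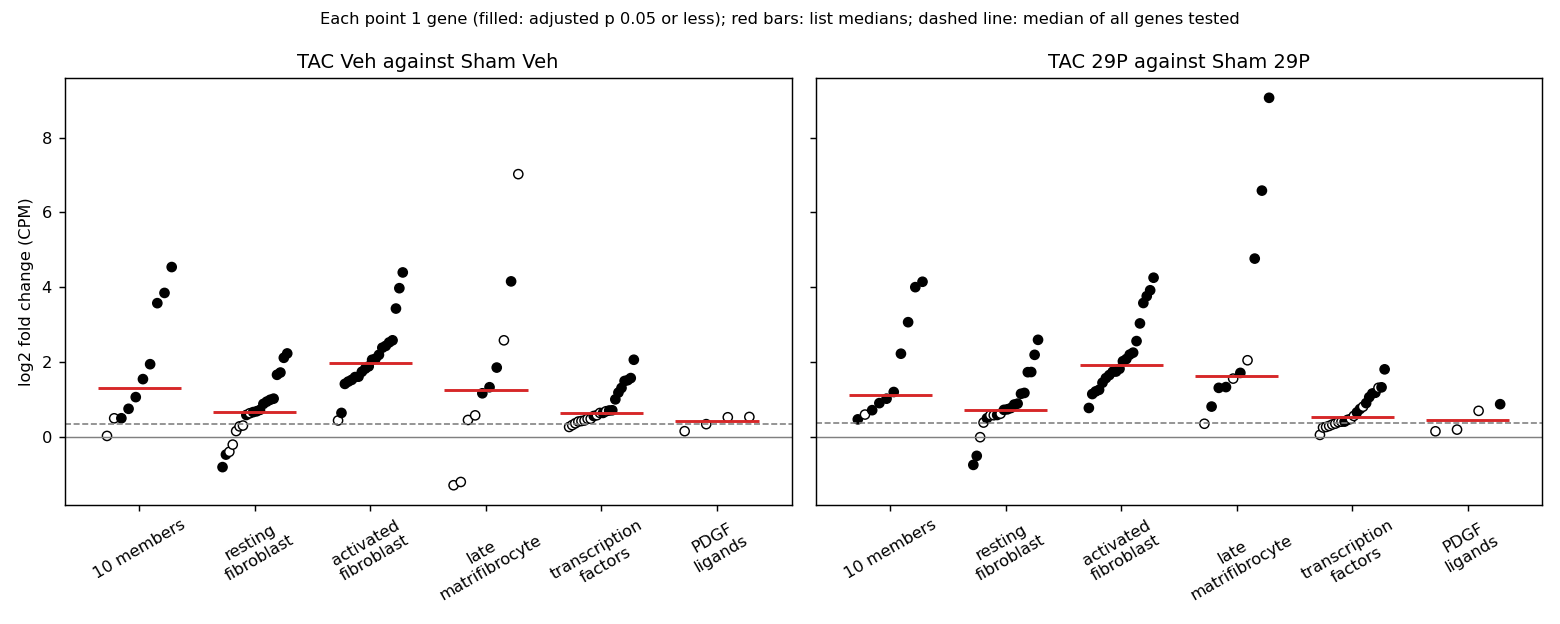
Log2 fold change (CPM) of the 10 members and of 5 gene lists, 1 point per gene (filled at an adjusted p of 0.05 or less), with red bars at list medians and a dashed line at the median of all genes. Medians in Veh mice were 1.3 for the members, 0.67 for resting, 1.97 for activated and 1.24 for late matrifibrocyte genes, 0.63 for transcription factors and 0.43 for PDGF ligands.

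Lists for other cells were measured beside these. After TAC 2 of 8 endothelial genes were higher in Veh mice, a share near the 22.5% of all genes, and 6 in 29P mice beside 31.4%, with none in either with TMM factors, and 1 cardiomyocyte gene was higher and 1 lower in each (none higher and 4 and 3 lower with TMM factors). All 5 red cell genes were higher in Veh mice (none in 29P mice, and none in either with TMM factors), with a summed CPM of 562 to 2460 in Sham, 3080 to 4990 in TAC Veh and 1040 to 4150 in TAC 29P libraries. Of the lymphocyte genes 1 of 4 tested was higher in Veh mice, and of 6 tested genes of valve, cartilage or tendon 2 were higher, Fmod and Scx, both named above (none with TMM factors), and 2 in 29P mice (also 2 with TMM factors). The summed CPM of that last list was 1.2 to 18.9 in Sham and 5.91 to 106 in TAC libraries, and at most 5.21 in Sham without the libraries with atrial transcripts. No mesothelial or adipocyte gene was called, and of 5 tested Schwann cell genes none was called in Veh mice (median log2 fold change -0.97) and 1 was lower in 29P mice (median -0.54).

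In mm10 the members lie at chr10:22817281-22820174 (Tcf21, minus strand), chr5:75152292-75198215 (Pdgfra, plus), chr18:61045150-61085061 (Pdgfrb, plus), chr11:101877510-101894374 (Meox1, minus), chr16:92601466-92826149 (Runx1, minus) and chr2:62500943-62574075 (Fap, minus). Acta2 lies at chr19:34241090-34255590 (minus), Cthrc1 at chr15:39076932-39087121 (plus), Cilp at chr9:65265180-65280605 (plus) and Comp at chr8:70373558-70382066 (plus). GENCODE vM21 places a gene on the opposite strand over Tcf21 (Gm10824), Meox1 (Gm11551), Runx1 (Gm26626) and Pdgfra (Gm42802 and Gm42803). Whether reads of these were counted apart from those of the member is not known, since the strand setting of the counting is not given in the sources used here.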

How the data were processed

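RNA of the left ventricular apex of 17 mice was sequenced by the authors and aligned with STAR 2.3.7 to mm10 in Partek, per the labels and the submitters' processing notes. The deposited unit is CPM per gene with a constant of 0.0001 added by the authors. Raw reads could not be recovered: 81.1 to 84.4% of low values came out whole within 0.02 read. Relative depth was estimated from the steps between low values.

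Log2 of the deposited values was fitted with limma 3.58.1 (R 4.3.3; 1 mean per group, all 17 libraries, 13 residual degrees of freedom, trended variance) over genes of at least 0.5 CPM in 3 libraries. A call was a Benjamini-Hochberg adjusted p of at most 0.05 over 16218 genes. Single genes were also tested by two-sided exact permutation (scipy 1.17.1). TMM factors trimmed 30% of log ratios and 5% of means, computed on CPM. Tested on simulated data of TAC Veh against Sham Veh (16218 genes, 5 data sets, 200 changed genes each), the adjusted call found 54.8% of 2-fold and 16% of 1.4-fold changes. An unadjusted p of 0.05 found 85.6% and 60.4%. In the data 3648 genes were called higher, so the adjusted threshold was stricter in the simulation, and its shares do not carry over to this comparison.

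All members were named, with 3 nearest genes by r each, up to 3 called genes per list and direction, and all PDGF ligands and relatives. The members and lists were chosen with earlier results of these data known. Intervals on pooled reads cover counting error only. Alternatives were other scalings, constants, filters, thresholds, sample weights, the run of animal numbers, and leaving out libraries.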

Additional observations from a re-analysis of the deposited data

Results flagged for a closer look

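Tcf21 in Sham Veh was set apart by 1 library: library 13, at 8.37 CPM, stood above the other 4 (5.59 to 6.14 CPM) by 0.767 of the group's whole log2 range, where Dixon's critical value for 5 libraries is 0.710. Of 20 groups of 4 or more libraries examined over the 10 genes this was the one so set apart, and chance gives about 1 in 20. Library 13 did not hold atrial transcripts. Left out, the Tcf21 difference of TAC Veh from Sham Veh kept its direction.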

How the results depend on the processing

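Meox1 and Cilp kept direction and call in both comparisons of TAC with Sham in every alternative run. Of 8 members called for TAC Veh against Sham Veh, 5 were called with TMM factors, with median-of-ratios factors, with totals without mitochondrial-encoded genes and with 0.1 CPM added and TMM factors, and 4 with TMM factors and without the libraries with atrial transcripts. Of 9 for TAC 29P against Sham 29P, 4 were called with TMM factors, median-of-ratios factors, 0.1 CPM added and TMM factors, or TMM factors without the libraries with atrial transcripts, 5 with totals without mitochondrial-encoded genes, and 3 with animal-number run as a model term. The cause was not tested. Leaving out 1 library gave 2 to 8 and 2 to 9 members called, beside 2.6 to 26.3% and 6.41 to 39.7% of all genes called higher, and 0 to 0 members in the other comparisons.

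Signs turned only in values that were not called. For TAC Veh against Sham Veh, Acta2 was -0.29 with TMM factors with or without 0.1 CPM added, -0.31 with median-of-ratios factors, -0.14 with totals without mitochondrial-encoded genes, -0.05 with array weights and -0.30 to 0.23 with 1 library left out. For TAC 29P against TAC Veh, Tcf21 was -0.02 and Acta2 -0.01 with that term, and Fap was -0.00 with array weights. Without the libraries with atrial transcripts Fap was -0.02 and Acta2 -0.08, also with 0.1 CPM added, and with TMM factors there Acta2 was -0.05 and Pdgfrb 0.00. With 1 library left out Tcf21 ran from -0.09 to 0.31, Pdgfrb from -0.21 to 0.04, Meox1 from -0.72 to 0.07, Fap from -0.05 to 0.11 and Acta2 from -0.12 to 0.42. For Sham 29P against Sham Veh, Runx1 was 0.03 with TMM factors (with or without 0.1 CPM) and median-of-ratios factors, and 0.02 with totals without mitochondrial-encoded genes or that term. Fap was -0.17 with that term, -0.11 without the libraries with atrial transcripts (with or without 0.1 CPM) and -0.06 with TMM factors there, and Cthrc1 was -0.01 with 1 CPM added. With 1 library left out Pdgfrb ran from -0.31 to 0.27, Runx1 from -0.19 to 0.14, Fap from -0.12 to 0.25 and Cthrc1 from -0.05 to 0.76.

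No paired analysis was possible because the groups share no replicate numbers. The settings that combine 2 choices, the ratio to Pdgfra and the values within 1 run of animal numbers were chosen after seeing the data. With only the groups compared, the difference between the changes with 29P could not be fitted. At 1 CPM in every library 8 members were left. Depth limits Cthrc1, at 1 to 9 reads per Sham library.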
